A study of Homo sapiens with 18 samples.

Results

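The genes of 10 subunits of the SWI/SNF chromatin remodelling complexes were followed by RNA sequencing in MDA-MB-231 cells, an established line of triple-negative breast cancer. The members were taken by symbol from the 60642 symbols counted in each library. They were SMARCA2, SMARCA4, SMARCB1, SMARCC1, SMARCC2, SMARCE1, ARID1A, ARID1B, ARID2 and PBRM1. Of these, 9 had enough reads to be tested and SMARCB1 had no read in any library. The study asked how HP1γ, a chromatin reader encoded by CBX3, and PRMT5, an arginine methyltransferase, take part in gene regulation by the glucocorticoid receptor (GR). Cells were transfected for 48 h with 25 nM of a pool of siRNAs with a non-specific sequence (siNS), against HP1γ (siHP1γ) or against PRMT5 (siPRMT5), and then received for 8 h either 100 nM dexamethasone (Dex), a synthetic glucocorticoid, or its vehicle ethanol (Eth). This gave 6 conditions with 3 replicates each, that is 18 libraries. All of them came from the same cell line, all carried an siRNA pool, and each target was depleted with 1 pool only. 

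SWI/SNF complexes use the energy of ATP to slide or evict nucleosomes and so open chromatin at enhancers and promoters. Each complex holds an ATPase, SMARCA4 (BRG1) or SMARCA2 (BRM), and scaffold subunits such as SMARCC1, and the complexes called BAF and PBAF share a core that also includes SMARCB1 and SMARCE1. BAF also carries ARID1A or ARID1B, whereas PBAF carries ARID2 and PBRM1. GR is known to use these complexes to reach its sites in chromatin.

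Library totals ranged from 8682992 to 12472381 counts, and levels are given as CPM, a gene's counts scaled to a common library total, after TMM scaling, whose factors lay between 0.969 and 1.04. The targeted genes followed the labels. PRMT5 stood at 249 ± 19.96 CPM (SD, n = 3) in siNS Eth and at 7.41 ± 1.17 CPM in siPRMT5 Eth libraries, and at 239 ± 11.4 against 10.5 ± 1.07 CPM with Dex. CBX3 stood at 255.5 ± 20.1 CPM in siNS Eth and at 9.89 ± 0.657 CPM in siHP1γ Eth libraries, and at 230.2 ± 10.3 against 13.7 ± 2.23 CPM with Dex. PRMT5 was also lower in siHP1γ libraries, at 206 to 211 CPM with Eth (siNS 226 to 262) and 177 to 199 CPM with Dex (siNS 226 to 247). In siPRMT5 libraries CBX3 was at 218 to 229 CPM with Eth (siNS 234 to 274) and 227 to 288 CPM with Dex (siNS 220 to 241). The GR targets TSC22D3, FKBP5, PER1 and KLF9 were higher with Dex in every depletion, without overlap between libraries. All 7 mesenchymal markers checked for the line had a median above 1 CPM (summed level 7693 to 11662 CPM), and of the 6 luminal markers (summed level 16.2 to 30.4 CPM) EPCAM, FOXA1 and GATA3 did so (median 11.4, 7.48 and 5.24 CPM), while ESR1, PGR and CDH1 had a median of 0. Of the 6 markers of leukocytes, fibroblasts and endothelium, PECAM1 alone had a median above 1 CPM. The replicates were described as biological, but the labels do not name separate cultures or days, so p-values measure the spread between these samples. In bulk RNA, fewer cells of a kind and less RNA per cell cannot be told apart.

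Of the 9 tested members, SMARCA4 had the highest mean level over the 18 libraries, whether in CPM or per length. In CPM, SMARCC1 was above it in siPRMT5 Eth replicate 3 (233 against 219) and siPRMT5 Dex replicate 2 (236 against 225). Divided by the exon length of the gene's canonical transcript, the level of SMARCA4 averaged 40.03 CPM per kilobase (kb) over the 18 libraries (28.6 to 50.6). SMARCC1 followed with 28.9 CPM per kb (22.4 to 37.3), and the library ranges of these neighbours overlapped. PBRM1 (18.1 CPM per kb), SMARCC2 (16.7 CPM per kb) and SMARCA2 (14.3 CPM per kb) came next, and their ranges also overlapped. They were not set apart, since PBRM1 reached up to 25.3 CPM per kb, within the range of SMARCC1. SMARCA2 went down to 12.2 CPM per kb, below the highest value of ARID1A (13.03). ARID1A stood at 10.1 CPM per kb, ARID2 at 8.66 CPM per kb and ARID1B at 6.97 CPM per kb, again with overlapping ranges. SMARCE1 lay apart from its neighbours at 1.98 CPM per kb (1.41 to 3.21), below every library's value of ARID1B (5.32 to 8.96). The kit's coverage along a transcript was not given in the sources used here, and division by length assumes that it was even.

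**Figure D1:**
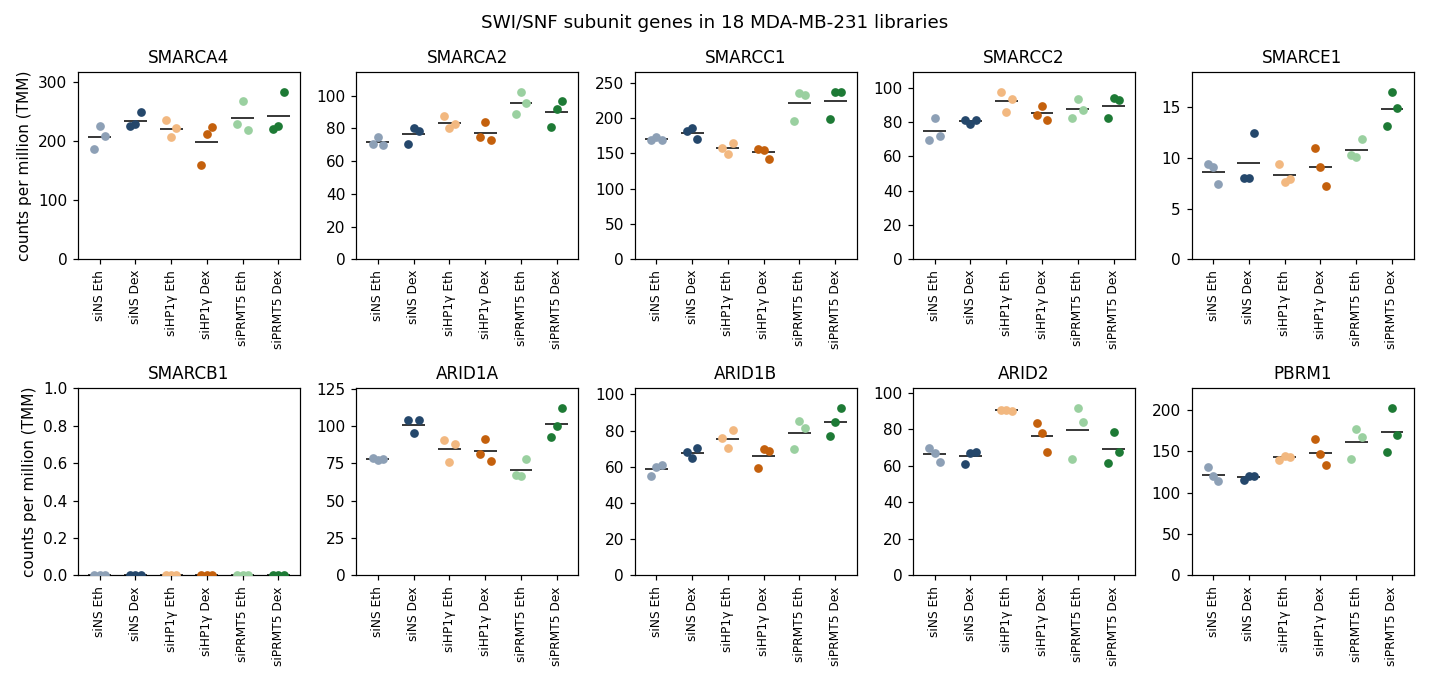
Level of each member in CPM (TMM-scaled, vertical axes starting at 0) in the 6 conditions (horizontal axis). Points are the 3 libraries of a condition and bars their mean. SMARCC1, ARID1B and PBRM1 are highest in the siPRMT5 conditions, ARID2 is highest in siHP1γ Eth, ARID1A is higher in siNS Dex and siPRMT5 Dex than in the matching Eth libraries, and SMARCB1 is at 0 throughout.

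PRMT5 depletion was accompanied by higher levels of several members, and none was called lower. HP1γ depletion with Dex gave 3 calls, in both directions, near the share of all genes called. Each depletion was compared with siNS at the same treatment, and a gene was called at an adjusted p-value under 0.05 (edgeR's quasi-likelihood test, Benjamini-Hochberg adjustment over 15298 genes). In siPRMT5 Eth against siNS Eth, 6 of the 9 tested members rose (SMARCA2, SMARCC1, SMARCC2, ARID1B, ARID2 and PBRM1) and 0 fell, where 42.1% of all tested genes were called and 20.6% were called higher. In siPRMT5 Dex against siNS Dex, 5 rose (SMARCA2, SMARCC1, SMARCE1, ARID1B and PBRM1) and 0 fell, where 42.4% of all tested genes were called and 20.6% were called higher. In siHP1γ Eth against siNS Eth, 4 rose (SMARCA2, SMARCC2, ARID1B and ARID2) and 0 fell, beside 31.8% of all genes called and 16.5% called higher. In siHP1γ Dex against siNS Dex, PBRM1 rose and SMARCC1 and ARID1A fell, which made 3 of 9 beside 24% of all genes called, 11.7% higher and 12.3% lower. In this order, the share of tested members called was 66.7%, 55.6%, 44.4% and 33.3%. The 3 calls in siHP1γ Dex fell to 0 without siNS Dex replicate 1, and with library totals alone 2 rose and 0 fell. The median log2 fold change of the 9 members was 0.32 (siPRMT5 Eth), 0.24 (siPRMT5 Dex), 0.22 (siHP1γ Eth) and -0.04 (siHP1γ Dex), while that of all tested genes lay between 0.00048 and 0.013. Replicate 1 of siPRMT5 Eth and replicate 1 of siPRMT5 Dex were below their condition's mean in all 9 tested members (on the log2 scale by -0.19 and -0.21 for PBRM1 and by -0.30 and -0.16 for ARID2). Without the replicate 1 of the condition compared, 6 members were called in siPRMT5 Eth and 6 in siPRMT5 Dex. The comparisons with Dex share the siNS Dex libraries and those without Dex share the siNS Eth libraries.

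**Figure D2:**
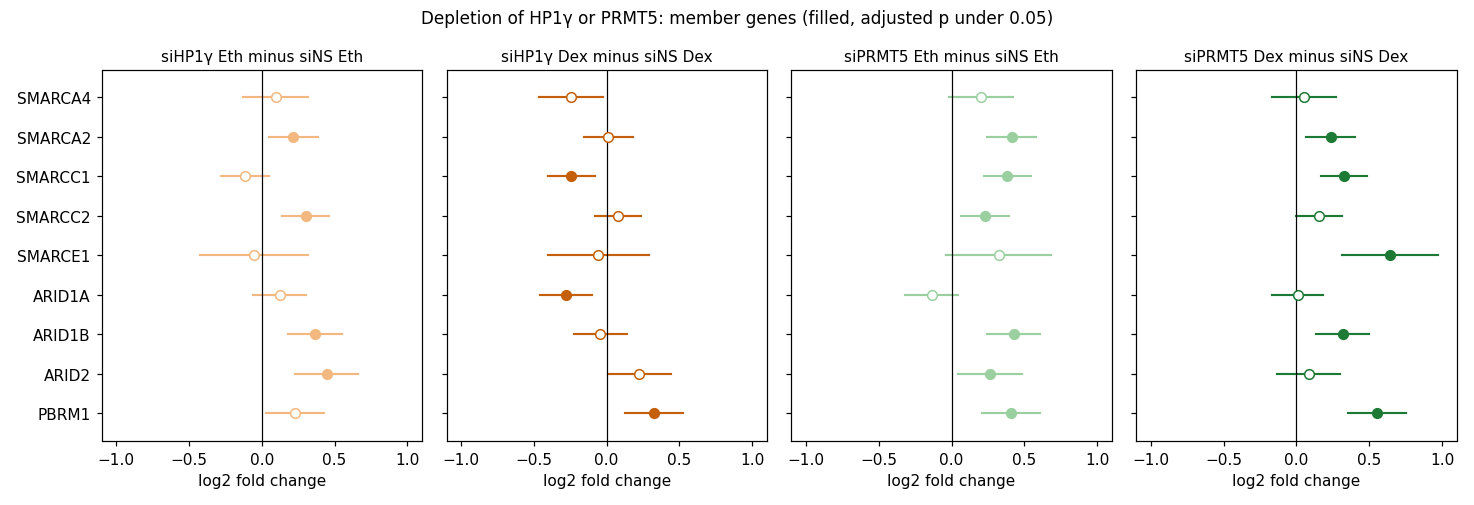
Log2 fold change (horizontal axes) of the 9 tested members after depletion of HP1γ (left panels) or PRMT5 (right panels), without and with Dex. Points are estimates of the edgeR fit, lines their 95% confidence intervals, and filled points passed an adjusted p-value of 0.05. All 11 filled points of the PRMT5 panels lie to the right of 0, and the filled points to the left of 0 are SMARCC1 and ARID1A in siHP1γ Dex.

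With library totals used without TMM scaling, genes called higher with siHP1γ were 2848 of 4117 with Dex, against 1787 of 3669 with TMM, and 3198 of 5012 with Eth, against 2531 of 4860 with TMM. Under that scaling SMARCC1 and ARID1A were no longer called in siHP1γ Dex (log2 fold change -0.16, adjusted p = 0.112, and -0.20, adjusted p = 0.0858), and ARID2 was (0.31, adjusted p = 0.0245). PBRM1 remained called, and the median log2 fold change of the members in siHP1γ Dex was 0.04 in place of -0.04. With 1 library left out that median lay between -0.08 (without siNS Dex replicate 2) and 0.05 (without siHP1γ Dex replicate 3), and it was also above 0 without siNS Dex replicate 3 or siHP1γ Dex replicate 1 (0.03 each).

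Of the ATPases, SMARCA2 rose in 3 of the 4 depletion comparisons, and SMARCA4 passed the threshold in none of these 4. SMARCA2 lies on chr9:1980290-2193624 (hg38, plus strand) and stood at 70.5, 75.0 and 70.0 CPM in the siNS Eth libraries and at 89.0, 102 and 95.8 CPM in siPRMT5 Eth. It stood at 70.6, 80.1 and 78.6 CPM in siNS Dex and at 80.9, 91.9 and 96.98 CPM in siPRMT5 Dex. Every siPRMT5 library was above every siNS library of the same treatment. The log2 fold change was 0.41 ± 0.08 (SE, adjusted p = 0.00021) without Dex and 0.24 ± 0.08 (SE, adjusted p = 0.0211) with Dex. The call with Dex was lost without siNS Dex replicate 1 (0.19, adjusted p = 0.111), siPRMT5 Dex replicate 2 (0.22, adjusted p = 0.0604) or siPRMT5 Dex replicate 3 (0.18, adjusted p = 0.103), and also without the filter on low counts (0.23, adjusted p = 0.053). In siHP1γ cells SMARCA2 stood at 87.6, 80.4 and 82.5 CPM with Eth and at 74.5, 83.8 and 72.6 CPM with Dex. The difference from siNS was 0.22 ± 0.08 (SE, adjusted p = 0.0457) without Dex, a call that did not hold in 16 of 18 fits with 1 library left out (adjusted p up to 0.181), with DESeq2 (0.21, adjusted p = 0.053) or without the filter on low counts (0.22, adjusted p = 0.0788). It was 0.01 ± 0.08 (SE, adjusted p = 0.942) with Dex, where the libraries overlapped.

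SMARCA4, on chr19:10960932-11079426 (plus strand), was the tested member with the smallest range of condition means (0.299 on the log2 scale), hardly below that of SMARCC2 (0.304). Its levels were 187, 225 and 207 CPM in siNS Eth, 235, 206 and 222 CPM in siHP1γ Eth and 229, 266 and 219 CPM in siPRMT5 Eth. With Dex they were 226, 229 and 248 CPM in siNS, 159, 211 and 223 CPM in siHP1γ and 219.7, 225 and 282 CPM in siPRMT5. The 3 siHP1γ Dex libraries lay below all siNS Dex libraries, and the other depleted conditions overlapped with their siNS libraries. No difference from siNS passed the threshold. The log2 fold changes were 0.10 ± 0.11 (SE, adjusted p = 0.535) in siHP1γ Eth, -0.24 ± 0.11 (SE, adjusted p = 0.0994) in siHP1γ Dex, 0.20 ± 0.11 (SE, adjusted p = 0.134) in siPRMT5 Eth and 0.05 ± 0.11 (SE, adjusted p = 0.749) in siPRMT5 Dex. Their 95% intervals reached from -0.47 to 0.43 over these comparisons. The estimate in siHP1γ Dex rested on single libraries, with a log2 fold change of -0.34 (adjusted p = 0.0303) without siHP1γ Dex replicate 3 and of -0.11 (adjusted p = 0.495) without siHP1γ Dex replicate 1. Without the filter on low counts the differences in siHP1γ Dex (-0.25, adjusted p = 0.0157) and siPRMT5 Eth (0.21, adjusted p = 0.0404) passed.

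SMARCC1 and SMARCC2 encode the paralogous scaffold proteins around which the core is built. SMARCC1 (chr3:47585269-47782106, minus strand) stood at 168, 173 and 168 CPM in siNS Eth, at 158, 149 and 164 CPM in siHP1γ Eth and at 195, 236 and 233 CPM in siPRMT5 Eth. With Dex it stood at 181, 185 and 170.2 CPM in siNS, at 156, 155 and 142 CPM in siHP1γ and at 199, 236 and 237 CPM in siPRMT5. For either treatment the siPRMT5 libraries were all above and the siHP1γ libraries all below the siNS libraries. The rise in siPRMT5 was 0.38 ± 0.08 (SE, adjusted p = 0.000298) without and 0.33 ± 0.08 (SE, adjusted p = 0.0014) with Dex on the log2 scale, and it was called in all 18 fits with 1 library left out. In siHP1γ the log2 fold change was -0.11 ± 0.08 (SE, adjusted p = 0.285) without Dex, which did not pass, and -0.24 ± 0.08 (SE, adjusted p = 0.0254) with Dex, which did. The latter call was lost without siNS Dex replicate 1 (-0.23, adjusted p = 0.0739), siNS Dex replicate 2 (-0.23, adjusted p = 0.0825) or siHP1γ Dex replicate 3 (-0.20, adjusted p = 0.0916).

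SMARCC2 (chr12:56162359-56189567, minus strand) stood at 69.9, 82.5 and 72.2 CPM in siNS Eth, at 97.7, 86.0 and 93.5 CPM in siHP1γ Eth and at 82.2, 93.8 and 87.2 CPM in siPRMT5 Eth. With Dex it stood at 81.4, 79.2 and 81.2 CPM in siNS, at 84.5, 89.4 and 81.5 CPM in siHP1γ and at 82.5, 93.9 and 92.8 CPM in siPRMT5. All siHP1γ libraries were above the siNS libraries of the same treatment, although with Dex by little. The log2 fold change was 0.30 ± 0.08 (SE, adjusted p = 0.00445) in siHP1γ Eth, called in all fits with 1 library left out, and 0.08 ± 0.08 (SE, adjusted p = 0.511) in siHP1γ Dex, not called. In siPRMT5 it was 0.23 ± 0.08 (SE, adjusted p = 0.0226) without Dex and 0.15 ± 0.08 (SE, adjusted p = 0.115) with Dex. The call without Dex was lost without siNS Eth replicate 1 (0.17, adjusted p = 0.125), siNS Eth replicate 3 (0.20, adjusted p = 0.0929) or siPRMT5 Eth replicate 2 (0.18, adjusted p = 0.123), and SMARCC2 was called with Dex without siPRMT5 Dex replicate 1 (0.22, adjusted p = 0.0417). MYL6, on the other strand, overlaps 14.1% of the exon bases of SMARCC2, and the strand setting of the counting was not given in the sources used here.

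SMARCE1 encodes a DNA-binding core subunit with an HMG box. It lies on chr17:40624962-40648654 (minus strand) and had only 72 to 201 reads per library. Its level was 8.04, 8.06 and 12.4 CPM in siNS Dex and 13.2, 16.5 and 14.9 CPM in siPRMT5 Dex, and the siPRMT5 libraries were all higher. The log2 fold change was 0.64 ± 0.16 (SE, adjusted p = 0.00205), the largest of any member in the 4 depletion comparisons, and was called in all 18 fits with 1 library left out. Without Dex the level was 9.38, 9.07 and 7.46 CPM in siNS and 10.3, 10.1 and 11.9 CPM in siPRMT5, with a log2 fold change of 0.32 ± 0.18 (SE, adjusted p = 0.147) that did not pass. In siHP1γ cells it was 9.44, 7.67 and 7.93 CPM with Eth and 11.02, 9.09 and 7.24 CPM with Dex, which overlapped with siNS (log2 fold change -0.05 ± 0.18 (SE, adjusted p = 0.853) and -0.06 ± 0.17 (SE, adjusted p = 0.846)). The reads of this gene are uncertain, because 51.5% of its exon bases are shared with the model ENSG00000264058 on the same strand and 4.65% of its 50-base stretches occur more than once on the primary chromosomes. Its pseudogenes SMARCE1P5 and SMARCE1P2 received 1163 and 745 reads over the 18 libraries. The share of SMARCE1 reads lost to these loci was not tested.

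SMARCB1, the core subunit that anchors the complex to the nucleosome, lies on chr22:23786931-23838009 (plus strand). It was listed at 0 in all 18 libraries, where a count of 0 allows up to 0.241 to 0.346 CPM per library (3 counts, counting error only). This value is no limit on the expression of the gene. SMARCB1 stands in a run of 12 neighbouring protein-coding genes from C22orf15 to GSTT4 (chr22:23762990-24005453), among them MIF and DDT, of which 9 were at 0 in every library and which together had 12 reads over the 18 libraries. The next gene on one side, CABIN1, had 10694 reads. On the other side VPREB3 had 14 reads and ZNF70, beyond it, 1101. DERL3, on the other strand and itself at 0, overlaps 56.3% of the exon bases of SMARCB1. The part of this overlap in the 0 was not tested. All 50-base stretches of the SMARCB1 exons, 100%, occur a second time in hg38 on the alternate contig chr22_KI270879v1_alt, whereas for the other members at most 1.02% occur on any such contig. Whether the reference used for mapping held this contig was not given in the sources used here, and its part in the 0 was not tested.

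ARID1A and ARID1B are the alternative DNA-binding subunits of BAF. ARID1B rose in 3 of the 4 depletion comparisons, and ARID1A fell in siHP1γ Dex alone. ARID1A (chr1:26693236-26782104, plus strand) stood at 78.5, 77.6 and 77.7 CPM in siNS Eth, at 90.9, 75.8 and 87.9 CPM in siHP1γ Eth and at 67.5, 66.7 and 78.1 CPM in siPRMT5 Eth. With Dex it stood at 104, 95.1 and 104 CPM in siNS, at 81.5, 91.6 and 76.6 CPM in siHP1γ and at 92.9, 100.0 and 112 CPM in siPRMT5. The siHP1γ Dex libraries were all below the siNS Dex libraries, while the other depleted conditions overlapped with siNS. The log2 fold change in siHP1γ Dex was -0.28 ± 0.09 (SE, adjusted p = 0.0192), and the call was lost without siNS Dex replicate 1 (-0.26, adjusted p = 0.0683), siNS Dex replicate 3 (-0.26, adjusted p = 0.0718) or siHP1γ Dex replicate 3 (-0.22, adjusted p = 0.0808). The other log2 fold changes, 0.12 ± 0.09 (SE, adjusted p = 0.307) in siHP1γ Eth, -0.14 ± 0.09 (SE, adjusted p = 0.229) in siPRMT5 Eth and 0.0077 ± 0.09 (SE, adjusted p = 0.953) in siPRMT5 Dex, did not pass.

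ARID1B (chr6:156776020-157210779, plus strand) stood at 54.9, 59.8 and 61.1 CPM in siNS Eth, at 75.8, 70.4 and 80.4 CPM in siHP1γ Eth and at 70.1, 85.0 and 81.4 CPM in siPRMT5 Eth. Both depletions were above siNS in every library. With Dex it stood at 68.3, 64.7 and 70.5 CPM in siNS, at 59.3, 69.7 and 68.8 CPM in siHP1γ and at 76.7, 84.7 and 92.3 CPM in siPRMT5, where only the siPRMT5 libraries stood apart from siNS. The log2 fold change was 0.43 ± 0.09 (SE, adjusted p = 0.000379) in siPRMT5 Eth, 0.32 ± 0.09 (SE, adjusted p = 0.00475) in siPRMT5 Dex and 0.37 ± 0.09 (SE, adjusted p = 0.00254) in siHP1γ Eth. These 3 calls held in every fit with 1 library left out. In siHP1γ Dex it was -0.04 ± 0.09 (SE, adjusted p = 0.766), which did not pass.

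Among the tested members, ARID1A had the largest estimated response to Dex in siNS and siPRMT5 cells, though not in siHP1γ cells, and ARID1B is its paralog. For this reason a sequence before a transcript start of each gene is given. They are RefSeq promoter windows on GRCh38.p14, plus strand, 5′ to 3′, up to 10 bases before the start, for ARID1A before the start of its canonical transcript at chr1:26695765-26696004, which lies in the first intron of a longer transcript that begins further out, and for the outermost start of ARID1B at chr6:156775776-156776015. Capitals mark the motifs searched, on both strands. The first was the GC box, a site of Sp1-like factors with the letters GGGCGG, which appears in ARID1A as its reverse complement. The second was the CCAAT box of NF-Y, which has the letters of its name. The third was AGAACA, one arm of a GR response element.
ARID1A: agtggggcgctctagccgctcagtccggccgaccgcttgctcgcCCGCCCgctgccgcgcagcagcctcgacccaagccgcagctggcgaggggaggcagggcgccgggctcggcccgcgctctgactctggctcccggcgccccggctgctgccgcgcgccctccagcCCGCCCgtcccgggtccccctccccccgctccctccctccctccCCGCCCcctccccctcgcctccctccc
ARID1B: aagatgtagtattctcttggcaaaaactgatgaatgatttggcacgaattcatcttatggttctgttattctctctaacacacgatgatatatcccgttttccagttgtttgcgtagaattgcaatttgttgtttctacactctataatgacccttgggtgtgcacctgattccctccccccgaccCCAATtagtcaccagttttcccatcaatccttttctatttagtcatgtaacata
ARID1A had 3 GC boxes and no CCAAT box in the 250 bases before this start, where 80.4% of bases were G or C and 30 CpG dinucleotides stood (median over 35116 promoters, 11). The outermost ARID1B window had 1 CCAAT box, no GC box, 38.8% G or C and 5 CpG dinucleotides. A second ARID1B start further in, at which the canonical transcript begins, had 4 GC boxes, 76% G or C and 37 CpG dinucleotides in its window. It is exonic in a longer transcript and is not printed. Of all promoters of this length, 42.6% held a GC box, 32% a CCAAT box and 12.4% an AGAACA. RefSeq windows were matched for 7 of the 10 members (13 windows), and none of them held AGAACA. A match or its absence describes these letters in this window only. SMARCC1, SMARCC2 and ARID2 had no entry in the table used.

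Of the PBAF subunits, ARID2 rose in both depletions without Dex and PBRM1 in 3 of the 4 depletion comparisons. ARID2 (chr12:45729706-45908040, plus strand), which joins PBRM1 to the complex, stood at 69.7, 66.9 and 62.2 CPM in siNS Eth, at 90.3, 90.7 and 89.9 CPM in siHP1γ Eth and at 63.6, 91.5 and 83.7 CPM in siPRMT5 Eth. The siHP1γ Eth libraries lay close together and above all siNS Eth libraries, and 1 siPRMT5 Eth library lay among those of siNS. The log2 fold change was 0.45 ± 0.11 (SE, adjusted p = 0.0019) in siHP1γ Eth, called in all 18 fits with 1 library left out. In siPRMT5 Eth it was 0.26 ± 0.11 (SE, adjusted p = 0.0483), a call that did not hold in 13 of these 18 fits (adjusted p up to 0.308, without siPRMT5 Eth replicate 2) nor with DESeq2 (0.27, adjusted p = 0.0571), with at least 10 counts asked for in every library (0.26, adjusted p = 0.0526) or with the libraries of the comparison alone (0.26, adjusted p = 0.0506). With Dex, ARID2 stood at 61.1, 67.2 and 67.6 CPM in siNS, at 83.3, 77.6 and 67.6 CPM in siHP1γ and at 61.5, 78.2 and 67.3 CPM in siPRMT5. Neither difference passed (log2 fold change 0.22 ± 0.11 (SE, adjusted p = 0.126) and 0.08 ± 0.11 (SE, adjusted p = 0.567)), although siHP1γ Dex was called without siHP1γ Dex replicate 3 (0.30, adjusted p = 0.0475).

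PBRM1 (chr3:52545352-52685917, minus strand) encodes the PBAF subunit with a row of bromodomains that read acetylated histones. It stood at 131, 119.9 and 115 CPM in siNS Eth, at 139.5, 145 and 144 CPM in siHP1γ Eth and at 141, 177 and 167 CPM in siPRMT5 Eth. With Dex it stood at 115, 121 and 120.4 CPM in siNS, at 165, 147 and 134 CPM in siHP1γ and at 149, 202 and 170.4 CPM in siPRMT5. Every depleted library was above every siNS library of its treatment. The rise in siPRMT5 was 0.55 ± 0.10 (SE, adjusted p = 4.09e-05) with Dex and 0.41 ± 0.10 (SE, adjusted p = 0.00121) without on the log2 scale, and both calls held in every fit with 1 library left out. In siHP1γ it was 0.33 ± 0.10 (SE, adjusted p = 0.014) with Dex, a call lost without siNS Dex replicate 1 (0.30, adjusted p = 0.056) or siHP1γ Dex replicate 1 (0.25, adjusted p = 0.0789). Without Dex it was 0.23 ± 0.10 (SE, adjusted p = 0.0717), which did not pass. It passed with library totals alone (0.29, adjusted p = 0.0178), without the filter on low counts (0.24, adjusted p = 0.0315), with the libraries of the comparison alone (0.21, adjusted p = 0.0138) and without siPRMT5 Dex replicate 2 (0.22, adjusted p = 0.0451).

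Dex changed no member at an adjusted p-value under 0.01 with a fold of 1.5 or more. In siNS cells 0 of 9 members were called by edgeR and 0 by DESeq2, where 2.71% of all genes were called, and 2 members had an unadjusted p under 0.05. In siHP1γ cells 0 were called by either tool beside 1.67% of all genes, with 2 under an unadjusted 0.05. In siPRMT5 cells 0 were called by either tool beside 5.44% of all genes, with 2 under an unadjusted 0.05. These percentages belong to the rule with the fold limit. The share of all genes under an unadjusted 0.05 was not counted. At an adjusted p-value under 0.05 with no limit on the fold, 1 member passed in siNS cells (9.16% of all genes), 0 in siHP1γ cells (5.55%) and 2 in siPRMT5 cells (16%). ARID1A was higher with Dex in siNS cells by 0.37 ± 0.09 (SE, adjusted p = 0.00512) and in siPRMT5 cells by 0.52 ± 0.09 (SE, adjusted p = 8.14e-05) on the log2 scale, with all Dex libraries above all Eth libraries. In siHP1γ cells its log2 fold change was -0.03 ± 0.09 (SE, adjusted p = 0.912) and the libraries overlapped. The response of ARID1A in siPRMT5 cells passed the rule with the fold limit without siPRMT5 Eth replicate 3 (0.60, adjusted p = 5.23e-05) or siPRMT5 Dex replicate 1 (0.59, adjusted p = 5.05e-05). SMARCE1 was the other member to pass without the limit in siPRMT5 cells (0.47 ± 0.16 SE, adjusted p = 0.0476), but it did not pass in 8 of 18 fits with 1 library left out (adjusted p up to 0.189, without siPRMT5 Dex replicate 2) nor with DESeq2 (0.47, adjusted p = 0.08), library totals alone (0.45, adjusted p = 0.0539) or the replicate block (0.47, adjusted p = 0.0584). The members under an unadjusted 0.05 in siHP1γ cells were ARID2, with a log2 fold change of -0.24 ± 0.10 (SE, adjusted p = 0.2), and ARID1B, with -0.20 ± 0.09 (SE, adjusted p = 0.222), and all their Dex libraries lay below the Eth libraries. ARID1B had a log2 fold change of 0.21 ± 0.09 (SE, adjusted p = 0.156) in siNS cells. None of these passed.

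**Figure D3:**
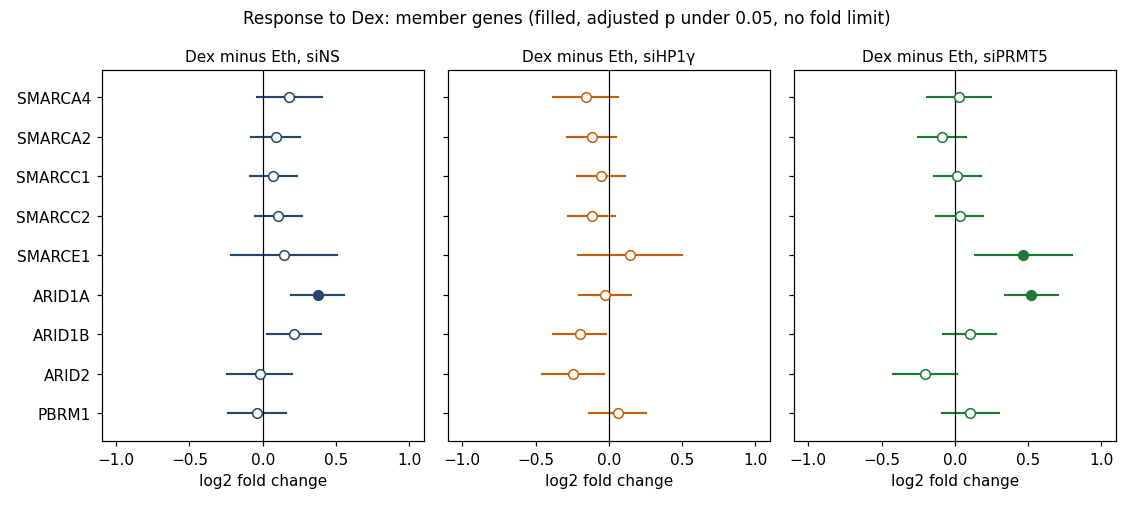
Log2 fold change with Dex (horizontal axes) of the 9 tested members in siNS, siHP1γ and siPRMT5 cells. Points are estimates of the edgeR fit with 95% confidence intervals, and filled points passed an adjusted p-value of 0.05 without a limit on the fold: ARID1A in siNS and siPRMT5 cells, and SMARCE1 in siPRMT5 cells.

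The difference between the responses was tested as an interaction. For siHP1γ against siNS cells, 0 of 9 members passed an adjusted p-value of 0.05 with edgeR, beside 0.399% of all genes. With DESeq2, 0 of the 8 members to which it gave an adjusted p-value passed. Under an unadjusted 0.05 with edgeR, for which the share of all genes was not counted, lay 3 members. These were ARID1B (log2 difference -0.41 ± 0.13 SE, adjusted p = 0.114), ARID1A (-0.40 ± 0.12 SE, adjusted p = 0.114) and SMARCA4 (-0.34 ± 0.15 SE, adjusted p = 0.249), and each estimate was lower in siHP1γ cells. For siPRMT5 against siNS cells, 0 members passed with edgeR and 0 with DESeq2 (3.8% of all genes with edgeR), and 0 had an unadjusted p under 0.05. The difference for ARID1A was 0.15 ± 0.12 (SE, adjusted p = 0.57), with a 95% interval from -0.11 to 0.40.

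The depletions were also set against each other, without use of the siNS libraries in the contrast. With Dex, 7 of 9 members were higher in siPRMT5 than in siHP1γ cells and 0 were lower, where 49.9% of all genes were called and 24.4% were called higher. SMARCC1 differed by 0.57 ± 0.08 (SE, adjusted p = 1.25e-06), SMARCE1 by 0.70 ± 0.16 (SE, adjusted p = 0.000724) and ARID1B by 0.36 ± 0.09 (SE, adjusted p = 0.00129) on the log2 scale, with no overlap between libraries. These 3 held in every fit with 1 library left out. ARID1A (0.29 ± 0.09 SE, adjusted p = 0.00745) was lost without siPRMT5 Dex replicate 3 (0.22, adjusted p = 0.0556). SMARCA4 (0.29 ± 0.11 SE, adjusted p = 0.0252) was lost without siHP1γ Dex replicate 1 (0.16, adjusted p = 0.183) or siPRMT5 Dex replicate 3 (0.18, adjusted p = 0.204). SMARCA2 (0.22, adjusted p = 0.0232) was lost without siHP1γ Dex replicate 1 or 3 or siPRMT5 Dex replicate 2 or 3 (adjusted p up to 0.113), and PBRM1 (0.23, adjusted p = 0.0491) in 9 of 18 such fits (adjusted p up to 0.377, without siPRMT5 Dex replicate 2). SMARCA2, SMARCA4 and PBRM1 were also lost with library totals alone (adjusted p = 0.0942, 0.0752 and 0.149) and with the libraries of the comparison alone (adjusted p = 0.0714, 0.0772 and 0.124), and PBRM1 with DESeq2 (adjusted p = 0.0586). Without Dex, 3 members were called beside 48.4% of all genes. SMARCC1 (0.50 ± 0.08 SE, adjusted p = 9.99e-06) and SMARCA2 (0.20 ± 0.08 SE, adjusted p = 0.0472) were higher in siPRMT5 cells, where 23.4% of all genes were higher, and ARID1A was lower (-0.26 ± 0.09 SE, adjusted p = 0.0172), where 25% were lower. Of these, SMARCC1 held in every fit with 1 library left out. ARID1A was lost without siHP1γ Eth replicate 1 or 3 or siPRMT5 Eth replicate 1 or 2 (adjusted p up to 0.1), and SMARCA2 without siNS Dex replicate 3, siHP1γ Eth replicate 2 or 3 or siPRMT5 Eth replicate 2 or 3 (adjusted p up to 0.15), with library totals alone (adjusted p = 0.0946) or without the filter on low counts (adjusted p = 0.106). SMARCE1 (0.38, adjusted p = 0.0771) and PBRM1 (0.18, adjusted p = 0.123) did not pass, but did with the libraries of the comparison alone (adjusted p = 0.0242 and 0.0373), SMARCE1 without siNS Dex replicate 3 (adjusted p = 0.0464) and PBRM1 without siPRMT5 Eth replicate 1 (adjusted p = 0.0245). ARID2 (-0.18, adjusted p = 0.152) did not pass either, but was called lower in siPRMT5 Eth without siPRMT5 Eth replicate 2 (-0.28, adjusted p = 0.0468).

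Within a library, the ratio of 2 paralogs does not depend on how libraries are scaled, and it is given as a description with no test. The ratio of SMARCC1 to SMARCC2 in CPM was 2.10 to 2.41 in siNS Eth and 2.10 to 2.34 in siNS Dex, and it was 1.61 to 1.76 in siHP1γ Eth and 1.73 to 1.85 in siHP1γ Dex. In siPRMT5 cells it was 2.38 to 2.67 with Eth and 2.41 to 2.55 with Dex. The siHP1γ libraries therefore all lay below the other 12. The ratio of ARID1A to ARID1B was 1.27 to 1.43 in siNS Eth, 1.077 to 1.199 in siHP1γ Eth and 0.785 to 0.963 in siPRMT5 Eth. With Dex this ratio was 1.47 to 1.52 in siNS, 1.11 to 1.38 in siHP1γ and 1.18 to 1.21 in siPRMT5. Only in siPRMT5 Eth was ARID1A below ARID1B in CPM, which does not allow for their unlike exon lengths. Per kb of exon, ARID1A averaged 8.23 ± 0.74 CPM there (SD, n = 3) and ARID1B 7.65 ± 0.75 CPM. The ratio of SMARCA4 to SMARCA2 ranged from 2.14 to 3.20 over the 18 libraries. The siPRMT5 Eth libraries (2.28 to 2.61) lay below those of siNS Eth (2.64 to 3.003) and siNS Dex (2.86 to 3.20), the siHP1γ Eth libraries (2.56 to 2.69) lay below those of siNS Dex, and all other pairs of conditions overlapped. Its means were 2.87 in siNS Eth, 3.07 in siNS Dex, 2.64 in siHP1γ Eth, 2.58 in siHP1γ Dex, 2.49 in siPRMT5 Eth and 2.69 in siPRMT5 Dex.

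**Figure D4:**
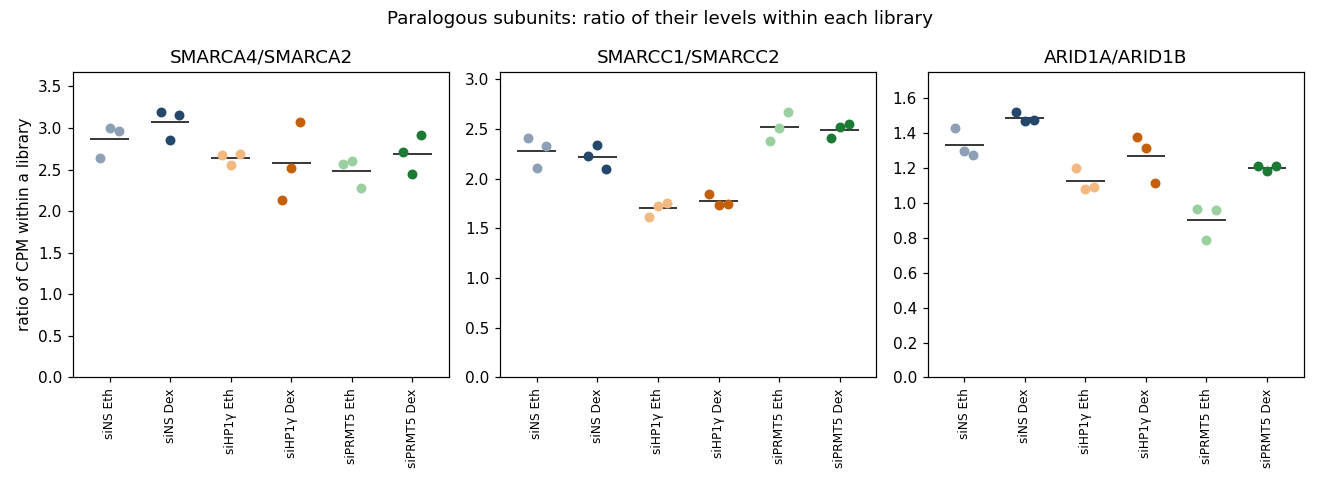
Ratio of the CPM of paralogous subunits within each library (vertical axes starting at 0) in the 6 conditions (horizontal axis). Points are the 3 libraries of a condition and bars their mean. The ratio of SMARCC1 to SMARCC2 is lowest in the siHP1γ libraries (1.61 to 1.85) and that of ARID1A to ARID1B is lowest in siPRMT5 Eth (0.785 to 0.963).

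Other subunit genes of the complexes were called in both directions. Of 19 such genes, 18 were tested, and the share called was 50% in siPRMT5 Eth, 38.9% in siPRMT5 Dex, 22.2% in siHP1γ Eth and 16.7% in siHP1γ Dex, near or below the 42.1%, 42.4%, 31.8% and 24% of all genes. In siPRMT5 Eth 5 rose and 4 fell, and in siPRMT5 Dex 4 rose and 3 fell, with a median log2 fold change of 0.09 and -0.01. The number that rose was 3 to 7 in siPRMT5 Eth over the alternative fits (3 without siNS Eth replicate 3 or any 1 siPRMT5 Eth library) and 2 to 5 in siPRMT5 Dex (2 without siNS Dex replicate 2), while 4 and 3 fell in each of them. BCL7B fell by 0.82 ± 0.10 (SE, adjusted p = 2.73e-07) with Eth and by 0.87 ± 0.10 (SE, adjusted p = 8.83e-08) with Dex on the log2 scale, and BCL7A by 0.62 ± 0.13 (SE, adjusted p = 0.000505) and 0.66 ± 0.14 (SE, adjusted p = 0.000317). BCL7A and BCL7B encode small accessory subunits. SMARCD2, of the BAF60 family that links the complexes to transcription factors, rose by 0.62 ± 0.08 (SE, adjusted p = 1.02e-06) with Eth, and BICRA, which marks the GBAF form of the complex, rose by 0.53 ± 0.16 (SE, adjusted p = 0.0099) with Dex, a call lost without siNS Dex replicate 2 (0.41, adjusted p = 0.0659). In siHP1γ Eth 2 rose and 2 fell, among them BCL7C (-0.35 ± 0.10 SE, adjusted p = 0.00688), PHF10 of PBAF (-0.34 ± 0.08 SE, adjusted p = 0.00245) and BCL7B (0.30 ± 0.09 SE, adjusted p = 0.0139). The call of BCL7B was lost without siNS Eth replicate 1 (0.26, adjusted p = 0.0657) or siNS Eth replicate 3 (0.29, adjusted p = 0.0502). In siHP1γ Dex 1 rose and 2 fell, namely BCL7B (0.28 ± 0.09 SE, adjusted p = 0.026), ACTB (-0.31 ± 0.07 SE, adjusted p = 0.00152) and BICRAL (-0.28 ± 0.10 SE, adjusted p = 0.0476). BCL7B was not called there without siNS Dex replicate 2 or 3 or siHP1γ Dex replicate 2 or 3 (adjusted p up to 0.131), and BICRAL was not in 10 of 18 fits with 1 library left out (adjusted p up to 0.172) nor under 6 of the alternatives, DESeq2 among them (adjusted p = 0.0719). Over the alternative fits 0 to 3 rose in siHP1γ Eth (0 without siNS Eth replicate 1 or 3) and 0 to 1 in siHP1γ Dex (0 without siNS Dex replicate 2 or 3 or siHP1γ Dex replicate 2 or 3), and 2 and 1 to 2 fell. The median log2 fold change of the list was 0.01 and -0.10 in these comparisons.

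**Figure D5:**
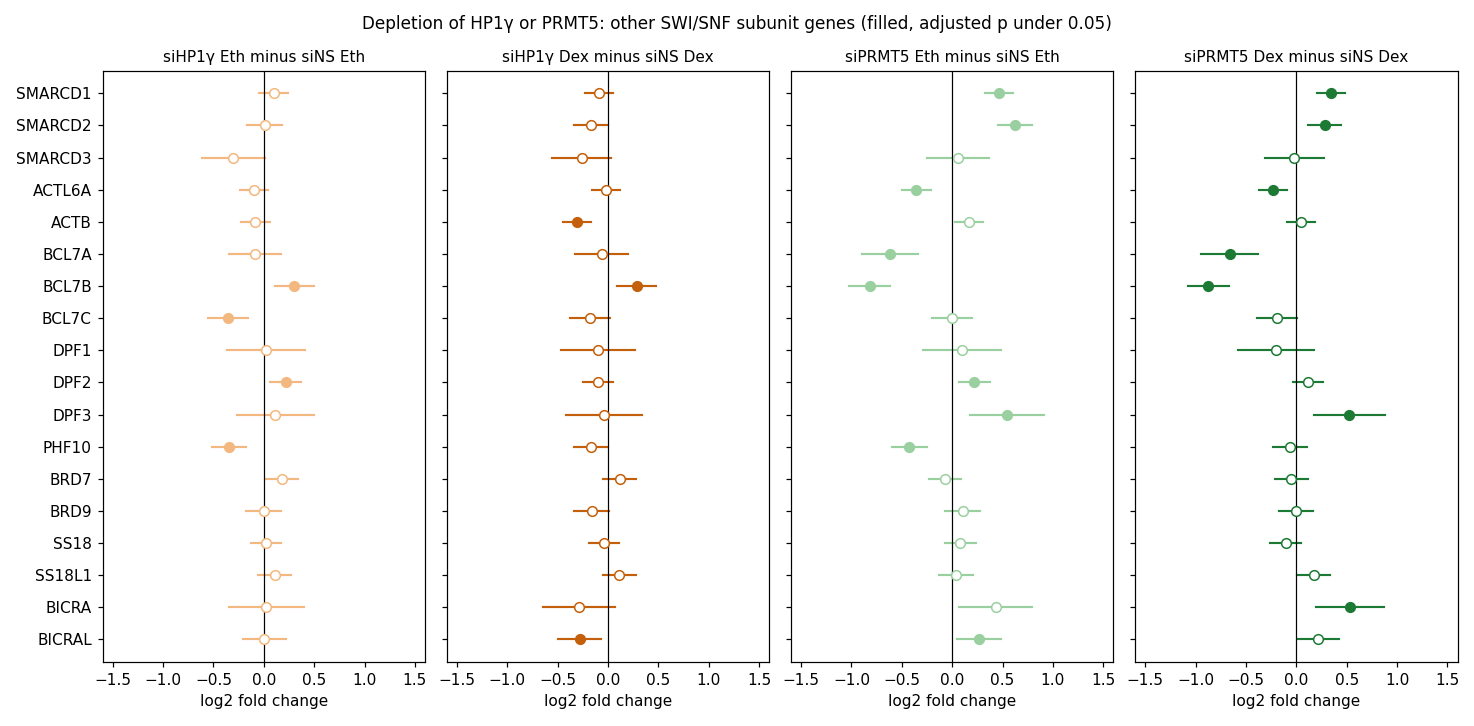
Log2 fold change (horizontal axes) of the 18 tested genes of other SWI/SNF subunits after depletion of HP1γ (left panels) or PRMT5 (right panels), without and with Dex. Points are estimates of the edgeR fit with 95% confidence intervals, and filled points passed an adjusted p-value of 0.05. BCL7B lies to the right of 0 in the HP1γ panels and furthest to the left in the PRMT5 panels.

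Of the 16 ATPase genes of other remodelling families, all of which were tested, 5 rose and 2 fell in siPRMT5 Dex, a share of 43.8% beside 42.4% of all genes. Over the alternative fits 4 to 6 rose and 0 to 3 fell there (0 fell without siPRMT5 Dex replicate 1 and 1 without siNS Dex replicate 2 or siPRMT5 Dex replicate 2). The largest called changes were in ATRX (0.60 ± 0.15 SE, adjusted p = 0.00219), SMARCA1 of the ISWI family (0.57 ± 0.07 SE, adjusted p = 3.09e-07) and SMARCAD1 (0.52 ± 0.11 SE, adjusted p = 0.000471). In siPRMT5 Eth 6 rose and 1 fell (43.8% beside 42.1% of all genes), and in siHP1γ Eth 8 rose and 1 fell (56.2% beside 31.8%). In siHP1γ Dex 0 were called by the main edgeR fit, beside 24% of all genes, and 0 by DESeq2. In that edgeR fit 2 had an unadjusted p under 0.05, and the share of all genes under this limit was not counted. There 4 rose with library totals used without TMM scaling. With the replicate block 1 rose, as also without the filter on low counts, siHP1γ Dex replicate 3 or siPRMT5 Dex replicate 1. The median log2 fold change of this list was 0.08 in siPRMT5 Dex, 0.16 in siPRMT5 Eth, 0.25 in siHP1γ Eth and 0.10 in siHP1γ Dex.

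SMARCE1 had the widest range of condition means among the members (0.80 on the log2 scale). The genes whose log2 CPM followed it most closely over the 18 libraries, out of 11410 genes averaging 5 CPM or more, were ZNF621 (Pearson r = 0.901), OXR1 (r = 0.897) and TBC1D5 (r = 0.896). Among the members, the highest correlation was between SMARCA2 and ARID1B (r = 0.841) and the lowest between ARID1A and ARID2 (r = -0.247), over the same 18 libraries. These values describe libraries that share conditions, and no test was made.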

How the data were processed

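The 18 libraries were made from total RNA (Lexogen kits) and read on an Illumina NextSeq. Mapping on hg38 was done by the authors with Bowtie2 (2.4.2) and counting with htseq-count (0.9.1), and they deposited for each library whole-number counts of 60642 symbols without normalization. Since Bowtie2 makes no spliced alignments, junction reads may be missing. Read length, strand setting and gene annotation were not given in the sources used here. A table of the authors' own comparisons, with fold changes and p-values from DESeq2 (version 2.11.40.7), was not used. No column of another series was present (0 columns).

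Condition and replicate were taken from the titles of the samples. Genes were kept by filterByExpr (15298 of 60642) and scaled by TMM, and all 18 libraries entered 1 quasi-likelihood fit with 1 mean per condition (edgeR 4.0.16, limma 3.58.1, R 4.3.3; 12 residual degrees of freedom). The fit covered all genes, and p-values were adjusted over all genes tested (Benjamini-Hochberg). The fit was tried on simulated counts in which 200 genes differed in siPRMT5 Dex. Against siNS Dex, 28 of these were called at a fold of 1.25, 131 at 1.5 and 175 at 2. Calls of unchanged genes numbered 1, 12 and 11. A change of 1.25-fold can thus go uncalled. Far more genes were called in the siPRMT5 comparisons than were changed there, so these shares need not hold for the data. Standard errors were derived from each log2 fold change and the F statistic of its test. Depletions, their interactions with Dex and the contrast of both depletions were called at an adjusted p-value under 0.05, and responses to Dex at an adjusted p-value under 0.01 with a fold of at least 1.5, the lower of the fold limits named in the study. Total counts of 8682992 to 12472381 per library set the precision. For exact tests of single values, 3 against 3 libraries cannot go below p = 0.1, and none was used. Alternatives were DESeq2 (version 1.42.0), other scalings and filters, a replicate block, the libraries of a comparison alone, other thresholds and each library left out.

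All 10 members were described. Those called in a depletion with a fold of at least 1.2, and the one with the smallest range of condition means, were given library by library. Of 19 other subunit genes the 3 largest called changes per depletion comparison were named, and of 16 other remodelling ATPases the 3 largest called with siPRMT5 Dex. The members and lists were chosen with earlier results of these data known. Positions, canonical exons and overlaps are from GENCODE 44 on hg38, promoter windows from RefSeq (GRCh38.p14). For log2 CPM a pseudocount of 0.5 CPM was added.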

Additional observations from a re-analysis of the deposited data

How the results depend on the processing

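No called member changed direction under any alternative. The count of members called in siPRMT5 Dex stayed at 4 to 6, in siPRMT5 Eth at 4 to 7 and in siHP1γ Eth at 3 to 5, over 8 alternatives and 18 fits with 1 library left out. In siHP1γ Dex it was 3, with 2 to 4 over the alternatives (2 higher and 0 lower with library totals alone, 1 higher and 3 lower without the filter on low counts) and 0 to 3 with 1 library left out, the 0 without siNS Dex replicate 1. For the response to Dex with the fold limit the count in siPRMT5 cells was 0 to 1 with 1 library left out. With no fold limit, at an adjusted p-value under 0.05, it was 1 in siNS and 2 in siPRMT5 cells. For siPRMT5 Dex against siHP1γ Dex it was 4 with library totals alone, 4 with the libraries of the comparison alone, and 3 to 7 with 1 library left out (3 without siPRMT5 Dex replicate 3). For siPRMT5 Eth against siHP1γ Eth it was 5 with the libraries of the comparison alone, 1 with a fold of at least 1.2 added, and 1 to 3 with 1 library left out (1 without siHP1γ Eth replicate 3). The interaction counts were 0 under every alternative. The cause of these changes was not tested, apart from the thresholds, which differ by construction.

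Replicate numbers were not taken to pair the samples, since no label says that they do and deviations of same-numbered libraries correlated over r = 0.1 in 10 of 45 pairs (median 0.0125, -0.227 to 0.366), beside 10 of 90 pairs with different numbers. As a hint from the data alone, 9 of 18 libraries correlated best with their own number. With the replicate block the counts of called members were 3 in siHP1γ Dex, 5 in siPRMT5 Dex, 4 in siHP1γ Eth and 6 in siPRMT5 Eth, and 61 genes of all became 94 for the interaction of HP1γ depletion with Dex. Among members the block ended the call of PBRM1 in siPRMT5 Dex against siHP1γ Dex (0.22, adjusted p = 0.0523) and the pass of SMARCE1 with Dex in siPRMT5 cells without the fold limit (0.47, adjusted p = 0.0584), and outside the members that of BICRAL in siHP1γ Dex (-0.28, adjusted p = 0.0559). With the block 1 of the other remodelling ATPases rose in siHP1γ Dex (0 without it) and 3 fell in siPRMT5 Dex (2 without it). Of the other subunit genes 6 rose in siPRMT5 Eth with the block, against 5 without it. For the interaction of HP1γ depletion with Dex, DESeq2 called 300 genes and the fit with no filter on low counts 374, with 20 to 186 when 1 library was left out, and no member was among them. For the interaction of PRMT5 depletion with Dex 582 genes became 319 to 897 with 1 library left out. SMARCE1, with 72 to 201 reads per library, was the least precise member.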
